A study of Homo sapiens with 4 samples.

Results

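The 10 genes described here encode histone demethylases with a JmjC domain: KDM2A, KDM2B, KDM3A, KDM3B, KDM4A, KDM4B, KDM4C, KDM5A, KDM5B and KDM6B. They were chosen by gene symbol, and all 10 were found among the 19749 genes of the deposited table. U87 cells, an established human glioblastoma line grown in medium with serum, were exposed for 24 h to YZ129, a small molecule, at 5 µM, or to its vehicle DMSO, and poly(A) RNA was sequenced in 2 libraries per group. By the title of the series YZ129 is aimed at the HSP90, calcineurin and NFAT pathway, and the comparison asked which transcripts differed after treatment. Separate cultures are not named for the libraries, so p-values measure the spread between libraries, which may be technical.

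JmjC demethylases remove methyl groups from lysines of histone tails in a reaction that consumes oxygen and 2-oxoglutarate and needs iron. Each subfamily prefers particular marks: KDM2 acts on H3K36, KDM3 on H3K9, KDM4 on H3K9 and H3K36, KDM5 on the promoter mark H3K4, and KDM6 on the Polycomb mark H3K27. The enzymes depend on oxygen, and several of their genes, KDM3A and KDM4B foremost and KDM4C among others, are known targets of the hypoxia-inducible factors (HIF), which bind DNA at a short core sequence, the hypoxia response element.

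The authors deposited 1 comparison with no values per library, so no level per sample or per group can be shown. Each gene has a mean level (normalized read count), a log2 fold change ± standard error (SE), moderated towards 0, and an adjusted p-value; an adjusted p under 0.05 was taken as a call. The sign is a reading: a positive value was taken as higher with YZ129 because of heat shock genes. Of 22 such genes 11 were called positive and 0 negative, against 5.24% called positive of all tested genes. Inhibitors of HSP90 are known to activate the heat shock factor HSF1. The heat shock genes were chosen with earlier results of these data known, so they are no independent evidence of direction. The comparison is named with DMSO ahead of the compound, which points the other way. Under the opposite reading every "rose" and "fell" below changes places. The lowest mean levels showed that 8 libraries, 4 more than those described, stand behind the mean level. No source used here says whether those 4 also entered the SE. As to the identity of the cells, the mesenchymal glioma markers VIM (298885) and CD44 (134994) had high mean levels in the authors' deposited table, while the astroglial marker GFAP stood at 52.2. The glioma markers S100B (1.12) and FABP7 (15.5) were also low. Some markers of other cell types were near 0 in mean level in the authors' deposited table. Among them were CDH1 (epithelial) at 1.23, PTPRC (blood) at 2.28, CDH5 (endothelial) at 0.63 and STMN2 (neuronal) at 0.82. Other markers of the same cell types were higher, with CD68 at 12821, LCP1 at 1213, KDR at 673 and KRT8 at 93.7 in the authors' deposited table. So were the neuronal markers TUBB3 (3031), SNAP25 (716), SYT1 (408) and GAP43 (147). These levels pool all 8 libraries, so they do not describe the 4 named libraries alone. Of the 10 tested epithelial, blood and endothelial markers 1 passed, LCP1, which rose. Of 4 tested neuronal markers 3 fell (75%) and of 8 tested astroglial and glioma markers 5 fell (62.5%), against 7.64% of all tested genes. The part of these in the results was not tested.

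The promoter windows of the members are shown first, because several members, among them KDM3A, KDM4B and KDM4C, are known HIF targets. RefSeq windows (GRCh38.p14) of 300 bases, from 250 before to 50 after each annotated start, were found for 10 of 10 members, 16 windows in all. They were searched on both strands for the hypoxia response element cores ACGTG and GCGTG. The 250 bases before the KDM4B start, chr19:4968863-4969112 on the plus strand, are given whole since KDM4B had the largest fall. Capitals mark the cores; in CACGTG the core lies on both strands, and the 6 letters are also an E-box.
KDM4B: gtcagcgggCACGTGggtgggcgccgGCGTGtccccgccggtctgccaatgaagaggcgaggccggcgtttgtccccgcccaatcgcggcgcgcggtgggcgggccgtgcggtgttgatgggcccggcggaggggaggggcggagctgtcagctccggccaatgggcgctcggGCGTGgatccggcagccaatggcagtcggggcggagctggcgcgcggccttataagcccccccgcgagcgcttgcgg
The other sequences are 30 bases around a core, 5′ to 3′ in the direction of the gene, chosen to set the other called members and KDM4C side by side.
KDM3A, core from -26, chr2:86441332-86441361 on the plus strand: tccgggaggctgtGCGTGtcttgtgagagc
KDM4C, core from -63, chr9:6757898-6757927 on the plus strand: tgtttgtaagccCACGTGactcaccaagtg
KDM4C, core from -31, chr9:6757930-6757959 on the plus strand: ggccccagcggtCACGTGacggcgcgcgcg
KDM2B, core from 3 after the start, chr12:121581005-121581034 on the minus strand: ctgtatttcctgtACGTGtgtgtgtccaca
KDM6B, core from -231, chr17:7833973-7834002 on the plus strand: accttagaagggcGCGTGatccaaatgagt

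A core of either kind was present in 13 of the 16 windows of the members (81.2%), against 48.4% of all 35116 windows. The 2 windows of KDM3A overlap by 210 of 300 bases and hold the same core, so the 13 are not separate. Counted by gene, 9 of the 10 members had a core, against 52.4% of all 27305 genes with a window. The members had 16 windows for 10 genes, more per gene than the 35116 windows for 27305 genes. More windows give more places for a core, and the shares by gene were not matched for windows or for G and C. The members' windows were richer in G and C, with a median of 63.8% against 58.7%, and 14 of the 16 reached 60%; of all windows at or above 60%, 64.9% held a core. The rarer core ACGTG was in 3 of the 16 windows (18.8%), against 21.4% of all windows and 25.2% of the G- and C-rich ones. Those 3 windows belong to KDM2B, KDM4B and KDM4C. KDM4B, KDM4C, KDM2A and the most downstream KDM2B window had 3 separate cores each, a number reached by 7.54% of all windows. These windows had 62.7% to 84% G and C, and the share with 3 cores among windows that rich was not computed. KDM3B, with a single window, had none. Cores thus lay in windows of genes that fell, of KDM6B, which rose, and of genes that did not pass, and a match of letters is not a binding site.

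**Figure D1:**
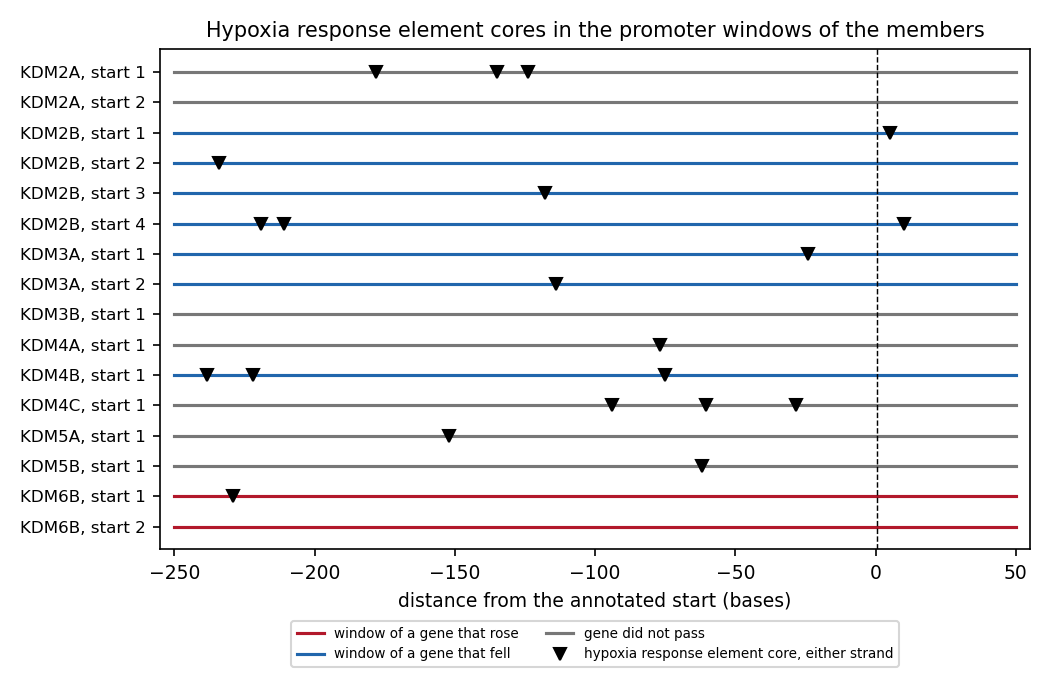
Positions of hypoxia response element cores on either strand (triangles) in the 16 RefSeq promoter windows of the members, in bases from the annotated start (dashed line); line colour gives the call of the gene. The 3 separate cores of KDM4B, which fell, and of KDM4C, which did not pass, can be compared, and KDM3B has none.

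Of the 10 demethylases 3 fell with YZ129, namely KDM4B, KDM3A and KDM2B, 1 rose, KDM6B, and 6 did not pass. Of all 14812 tested genes 12.9% were called, 7.64% as falls and 5.24% as rises; among the 7377 genes at a mean level of 1000 or more the share was 13.9%. The median log2 fold change was -0.14 for the members and -0.05 for all tested genes. All 10 members had an adjusted p-value, so none was lost to a filter on low levels. In bulk RNA, fewer cells with a transcript and less of it per cell cannot be told apart. Their mean levels ran from 742 to 4983 and their SE from 0.14 to 0.16. The smallest score called in the table, 2.73 SE, means that a member had to change by 0.37 to 0.43 on the log2 scale to pass.

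**Figure D2:**
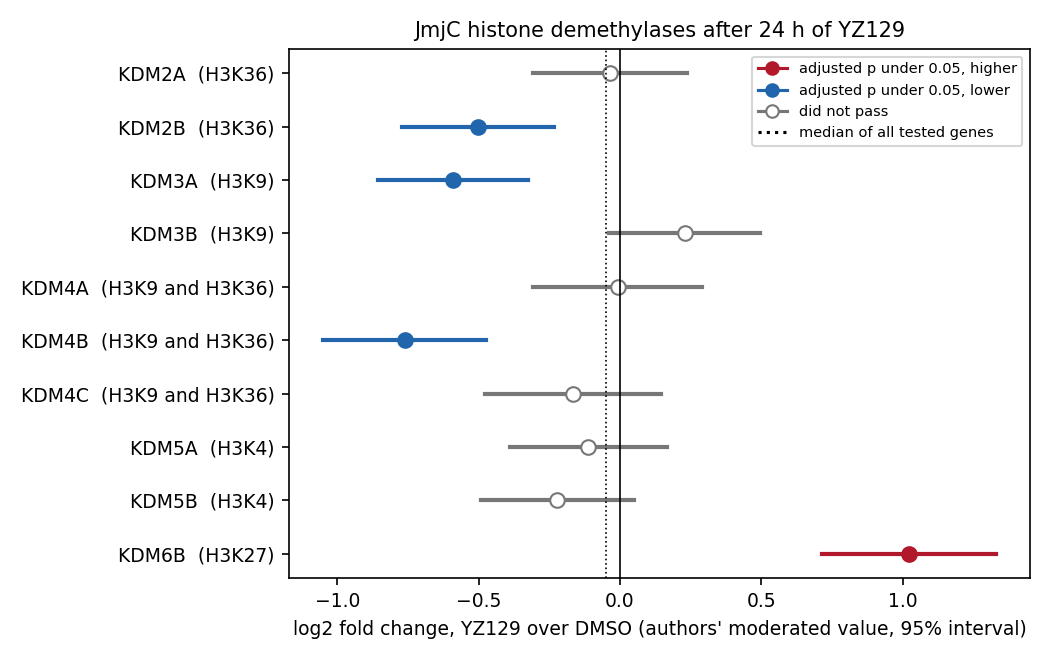
Log2 fold change, YZ129 over DMSO, of the 10 demethylases with the histone mark each acts on; points are the authors' moderated values and bars 95% intervals, filled where the adjusted p was under 0.05. KDM2B, KDM3A and KDM4B lie between -0.50 and -0.76, KDM6B lies at 1.02, and the intervals of the other 6 include 0.

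**Figure D3:**
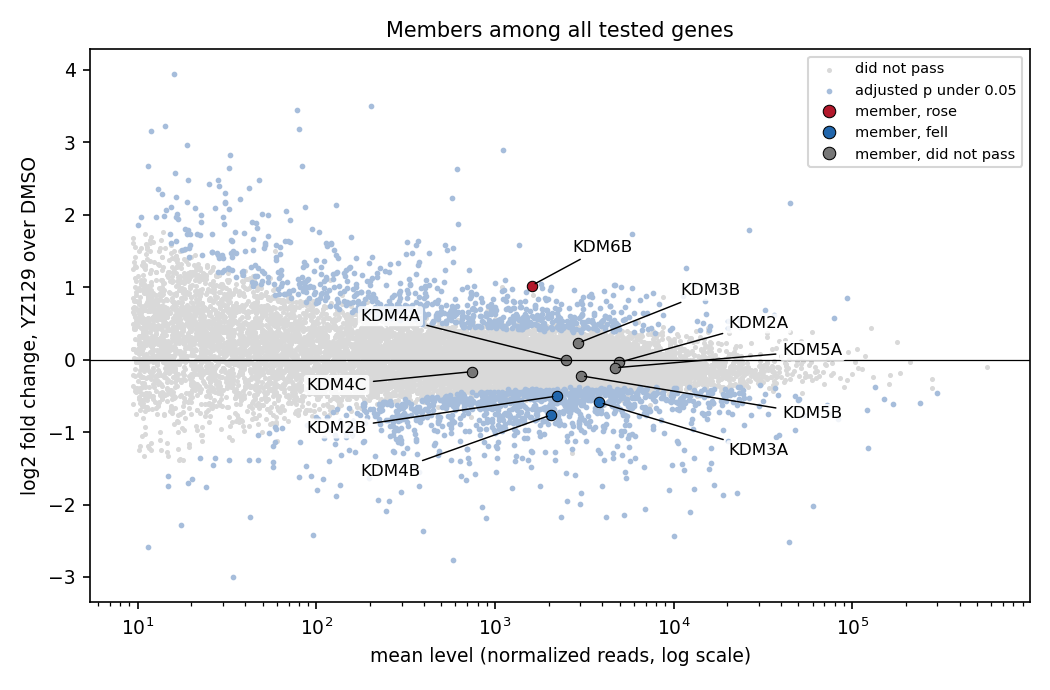
Mean level (normalized reads, log scale) against log2 fold change, YZ129 over DMSO, for all 14812 tested genes, with the members marked. The members sit in the middle and upper range of levels, and KDM6B at 1.02 and KDM4B at -0.76 are the farthest from 0.

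The larger falls were those of KDM4B and KDM3A. Other members that act on H3K9 did not pass, and KDM7A (listed as JHDM1D), outside the members, rose. KDM4B, which also acts on H3K36 and is a cofactor of steroid receptors, was 1.70-fold lower with YZ129 (-0.76 ± 0.15, 95% interval of the fold 1.39 to 2.07, adjusted p = 1.1e-05) at a mean level of 2071 in the authors' deposited table. Only 2.98% of tested genes had a lower log2 fold change than KDM4B. KDM3A, a demethylase of mono- and dimethylated H3K9 known in mice for its part in spermatogenesis and energy metabolism, was 1.51-fold lower (-0.59 ± 0.14, 95% interval of the fold 1.25 to 1.81, adjusted p = 0.000345) at a mean level of 3840 in the authors' deposited table. It was lower than all but 5.62% of tested genes. Both genes are known HIF targets, and both fell.

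Their paralogues among the members did not pass. KDM3B, which shares the H3K9 substrate of KDM3A, had 0.23 ± 0.14 (95% interval -0.04 to 0.50, adjusted p = 0.292) in the authors' deposited table. The value for KDM4A was -0.01 ± 0.15 (-0.31 to 0.29, adjusted p = 0.981) in the authors' deposited table. Its antisense gene KDM4A-AS1, which covers 8.97% of the KDM4A exon bases in GENCODE 29, had 0.41 ± 0.22 in the authors' deposited table; whether reads were counted by strand is not stated, so the pair cannot be fully told apart. A larger overlap, 2077 bases or 40.2% of the KDM4A exon bases, is with AL451062.3 on the same strand. No gene of that name is in the authors' deposited table. How reads in the shared bases were counted is not stated, so the KDM4A value is uncertain. KDM4C, also a known HIF target, had -0.17 ± 0.16 (-0.48 to 0.14, adjusted p = 0.562) and the lowest mean level of the members, 742, in the authors' deposited table. The interval of KDM4C allows a fold of up to 1.39 lower, which just meets the lower end of the KDM4B interval.

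Differences between paralogues were taken from the deposited values, with the 2 SE treated as independent and with 95% intervals not adjusted for the 11 pairs examined. KDM3A minus KDM3B was -0.82 (-1.20 to -0.44). KDM4B minus KDM4A was -0.75 (-1.17 to -0.34), and KDM4B minus KDM4C was -0.60 (-1.02 to -0.17). The pair KDM4A and KDM4C differed by 0.16, with an interval that includes 0 (-0.27 to 0.59). By these unadjusted intervals KDM3A and KDM4B stood apart from the relatives compared here. The KDM4A value in these pairs remains uncertain, as said above.

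Among the H3K36 demethylases KDM2B fell and KDM2A did not pass. KDM2B, which binds unmethylated CpG islands through a CXXC zinc finger and brings a Polycomb complex to them, was 1.42-fold lower with YZ129 (-0.50 ± 0.14, 95% interval of the fold 1.18 to 1.71, adjusted p = 0.00421) at a mean level of 2227 in the authors' deposited table. KDM2A, its close relative with the same CXXC finger and the most abundant member by mean level (4983), had -0.04 ± 0.14 (-0.31 to 0.24, adjusted p = 0.906) in the authors' deposited table. KDM2B minus KDM2A was -0.47 (-0.85 to -0.08). Exons of KDM2B overlap those of RNF34 on the other strand by 439 bases, 3.22% of its exon bases in GENCODE 29, and RNF34 had 0.20 ± 0.14 in the authors' deposited table. KDM3A, KDM4B and KDM6B share no exon bases with another gene in that annotation.

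The H3K4 demethylases did not pass. KDM5B, known as a marker of slow-cycling tumour cells in melanoma, had -0.22 ± 0.14 (-0.49 to 0.05, adjusted p = 0.319) in the authors' deposited table. KDM5A, first described as a partner of the retinoblastoma protein, had -0.11 ± 0.14 (-0.39 to 0.17, adjusted p = 0.673) in the authors' deposited table. KDM5B minus KDM5A was -0.11, and the interval of -0.50 to 0.28 leaves room for a difference in either direction.

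KDM6B, the inducible H3K27 demethylase also called JMJD3, was the member that rose. It was 2.03-fold higher with YZ129 (1.02 ± 0.16, 95% interval of the fold 1.64 to 2.51, adjusted p = 8.17e-09) at a mean level of 1603 in the authors' deposited table. It ranked 414 from the top of the 14812 tested genes. KDM6A, its X-linked relative, had 0.30 ± 0.17 (-0.03 to 0.63, adjusted p = 0.253) according to the authors' deposited table, and KDM6B minus KDM6A was 0.72 (0.27 to 1.17). Its change exceeded 1 on the log2 scale, a size that 2.79% of tested genes reached together with an adjusted p under 0.05.

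Per length, KDM4C had the lowest level. Mean levels divided by the length of the longest principal transcript in GENCODE 29 were highest for KDM3A (779 normalized reads per kb) and KDM2A (715), followed by KDM4A (556), KDM2B (485), KDM5A (435) and KDM3B (429). KDM4B (370), KDM5B (292), KDM6B (239) and KDM4C (159) were lower, 4.89-fold between the ends. These levels are averages over 8 libraries with no spread given, so which neighbours differ cannot be said. With the union of all annotated exons as the length the order changed, KDM4A (481) and KDM2A (480) came out highest and KDM3A had 286, while KDM4C stayed lowest at 71.9.

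Other JmjC genes that changed all rose. Of 20 listed, 19 were in the table and 18 had an adjusted p-value. Of these 4 rose, 0 fell and 14 did not pass (22.2% called, against 12.9% of all tested genes), and the median was 0.10. JMJD1C, the third relative of KDM3A and KDM3B, was 2.05-fold higher with YZ129 (1.04 ± 0.18, adjusted p = 6.36e-07) in the authors' deposited table. KDM3A minus JMJD1C was -1.63 (-2.07 to -1.18), the widest gap among the 11 pairs. HSPBAP1, named as a partner of a small heat shock protein, had 0.76 ± 0.19 (adjusted p = 0.00161) in the authors' deposited table. JHDM1D, now KDM7A, which acts on H3K9 and H3K27, had 0.65 ± 0.21 (adjusted p = 0.0184) in the authors' deposited table. JARID2, a cofactor of the Polycomb complex PRC2 without demethylase activity, had 0.59 ± 0.15 (adjusted p = 0.00161) in the authors' deposited table.

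The JmjC genes that did not pass lay between -0.45 and 0.41. PHF8, which acts on H3K9 and H4K20, had 0.41 ± 0.15 (adjusted p = 0.0548) and was called after centring on the median of all tested genes (adjusted p = 0.0262) or of genes of like level (adjusted p = 0.0105). Its relative PHF2 had -0.33 ± 0.17 (adjusted p = 0.198) in the authors' deposited table. KDM5C, the X-linked H3K4 demethylase, stood at 0.12 ± 0.15 and the testis-enriched KDM4D at 0.09 ± 0.30 with a mean level of 72.3 in the authors' deposited table. The asparaginyl hydroxylase of HIF, HIF1AN, had 0.06 ± 0.15 and JMJD6, a lysyl hydroxylase, 0.09 ± 0.15 in the authors' deposited table. The ribosomal oxygenases MINA (now RIOX2) and C14orf169 (now RIOX1) had 0.17 ± 0.14 and 0.05 ± 0.19, and TYW5, a tRNA hydroxylase, 0.20 ± 0.20 in the authors' deposited table. JMJD7 had -0.45 ± 0.28, JMJD8 -0.18 ± 0.19, JMJD4 -0.10 ± 0.18 and KDM8 -0.05 ± 0.25 in the authors' deposited table. HR had no adjusted p-value, and KDM4E was not analysed here. Members and other JmjC genes together gave 5 rises and 3 falls among 28 tested (28.6% called, against 12.9% of all tested genes). All 3 falls were members.

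The complex PRC2 opposes KDM6B at H3K27. Of its 10 tested genes, catalytic and other subunits together, 2 fell and 1 rose (30% called, against 12.9% of all tested genes). Only the rise was still called after centring on the median of genes of like level. EZH2, the catalytic subunit of dividing cells, was 1.38-fold lower with YZ129 (-0.47 ± 0.14, adjusted p = 0.012), and the histone-binding subunit RBBP4 1.41-fold lower (-0.49 ± 0.14, adjusted p = 0.00496) in the authors' deposited table. With that centring EZH2 had -0.37 (adjusted p = 0.0653) and RBBP4 -0.33 (adjusted p = 0.0955). EZH1, the alternative catalytic subunit, was 1.74-fold higher (0.80 ± 0.16, adjusted p = 1.84e-05) in the authors' deposited table.

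Methyltransferases of the other marks are given beside the 12.9% called among all tested genes. Of 9 tested H3K9 genes (11.1% called) 1 rose and 0 fell, with a median of 0.03. The gene that rose was PRDM2 (0.63 ± 0.15, adjusted p = 0.000773) according to the authors' deposited table. Of 16 genes of the H3K4 methyltransferase complexes (12.5% called) 1 rose, listed as MLL2 (0.61 ± 0.16, adjusted p = 0.00369), and 1 fell, PAGR1 (-0.53 ± 0.15, adjusted p = 0.00618), in the authors' deposited table. The symbol MLL2 has been used for KMT2D and for KMT2B, so its identity is not settled by the table. PAGR1 belongs to the complex that also holds KDM6A. Of 7 tested H3K36 genes 0 passed in the authors' deposited table with DESeq2 columns, and 1 had an unadjusted p under 0.05, with values between -0.38 and 0.30. Of 11 genes of the flavin-dependent demethylases and their corepressors 1 fell, GSE1 (-0.75 ± 0.16, adjusted p = 8.05e-05), in the authors' deposited table. The enzymes themselves, KDM1A (-0.13 ± 0.14) and KDM1B (-0.14 ± 0.20), named after their values were seen, need no 2-oxoglutarate and did not pass, by the authors' deposited table.

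**Figure D4:**
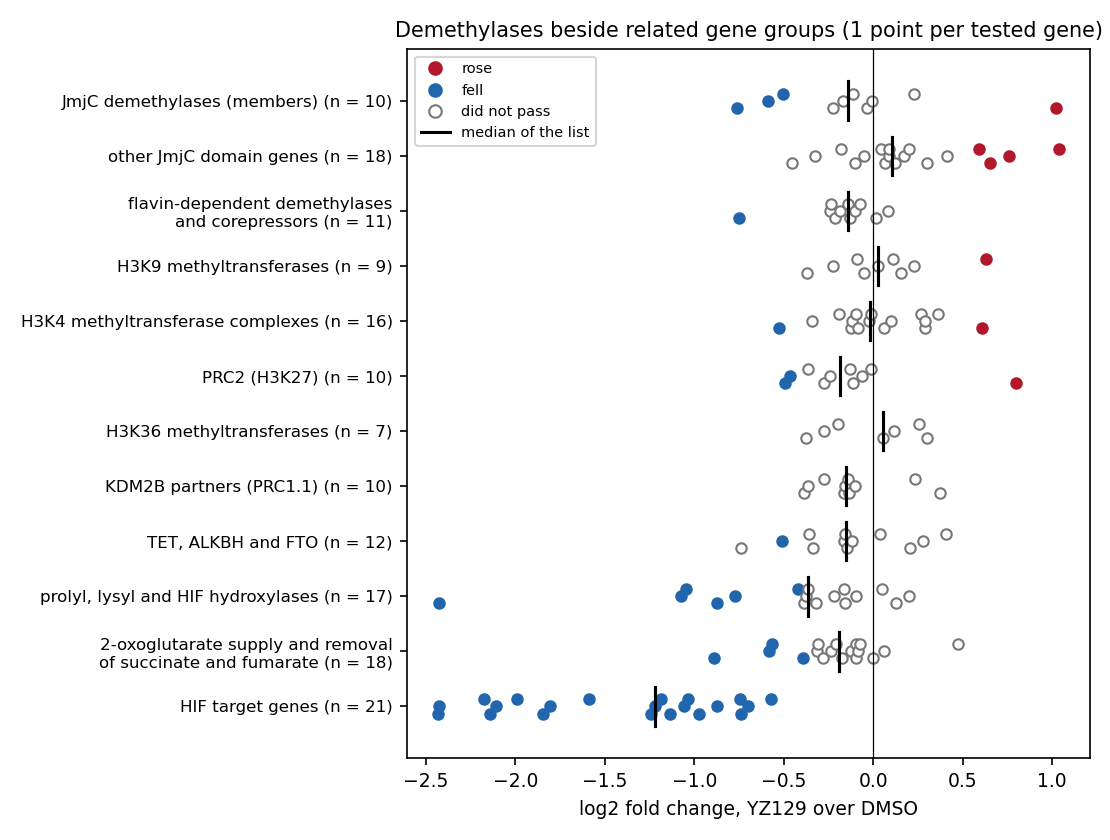
Log2 fold change, YZ129 over DMSO, of each tested gene in the demethylase family and in related gene groups; filled points passed an adjusted p of 0.05 and vertical bars are list medians. Rises outnumber falls among the other JmjC genes (4 and 0), and all 21 HIF target genes lie below 0.

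The HIF target genes, a list known from earlier results to be low in this comparison and so no independent evidence of direction, are given beside the demethylases without a test between them. All 21 tested fell, against 7.64% of all tested genes, with values between -2.43 and -0.57 and a median of -1.22. Those with the smallest adjusted p were DDIT4 (-2.43 ± 0.14), ZNF395 (-2.18 ± 0.13), the mitophagy receptor BNIP3 (-2.11 ± 0.14) and the carbonic anhydrase CA9 (-2.14 ± 0.15), by the authors' deposited table. Of the 21, 17 had a lower log2 fold change than KDM4B (-0.76), 20 a lower one than KDM3A (-0.59) and 21 a lower one than KDM4C (-0.17). Of 5 tested HIF subunits 1 fell (20% called, against 12.9% of all tested genes). It was EPAS1, which encodes HIF-2 alpha (-0.54 ± 0.14, adjusted p = 0.00205), in the authors' deposited table. After centring on the median of genes of like level EPAS1 had -0.38 and was no longer called (adjusted p = 0.0519). HIF1A (-0.14 ± 0.15) and its partner ARNT (-0.06 ± 0.14), named after their values were seen, did not pass, by the authors' deposited table.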

How the data were processed

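Poly(A) RNA of 4 libraries was sequenced, grouped by title into YZ129 and DMSO. Per the submitters' processing notes, the build was hg19 and the tools included Cuffdiff, Cufflinks 2.2.1 and TopHat2 2.0.12, with no role given; per the file headers the deposited columns carry the names that DESeq2 uses. For each gene the authors deposited a mean signal, in reads divided by size factors, a log2 fold change and its SE, a Wald score, and p-values before and after adjustment. The adjusted p matched a Benjamini-Hochberg adjustment over 14812 genes (tolerance 1e-06); 4937 genes with a mean level up to 9.43 had none. The fold changes are moderated: 1983 genes with a mean level under 1 had a median size of 0.28. Read totals are not given, so depth is unknown. The 36 distinct lowest mean levels are the pair sums of 8 steps, hence 8 libraries (tolerance 1e-07).

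Computed here with Python 3.11.15 and scipy 1.17.1 were 95% normal intervals, ranks, list counts and promoter matches; the code for p-values was tested on simulated data. The rule named all members, every tested JmjC gene, and in each list the called genes, up to 4 by adjusted p. Members, lists, paralogue pairs, the 60% class of G and C and heat shock genes were chosen with earlier results of these data known. Alternatives were other thresholds, adjustments and centrings.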

Additional observations from a re-analysis of the deposited data

How the results depend on the processing

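No paired analysis was possible because the deposited table holds no values per library, and for the same reason the replicate block, leaving out libraries, and another tool were not run. The 4 called members, KDM2B, KDM3A, KDM4B and KDM6B, were called under 6 of the 7 alternatives. With a log2 change of at least 1 required, 0 members fell and KDM6B was still called; all genes called then numbered 413, against 1908, and 1144 at an adjusted p under 0.01. With that size required, the lists gave 0 calls for HIF-known demethylases, flavin-dependent demethylases, H3K9 and H3K4 methyltransferases and PRC2. TET with ALKBH, 2-oxoglutarate supply and use, and HIF subunits also gave 0. Other JmjC genes gave 1 and hydroxylases 3, while HIF target genes gave 15, against 21 without that size. At an adjusted p under 0.1, H3K36 methyltransferases gave 1 call and TET with ALKBH 3. Centred on the median of all tested genes, TET with ALKBH gave 2 with ALKBH1 added, KDM2A turned to 0.014 and KDM4A to 0.041. Centred on the median of genes of like level, PRC2 gave 1 call, with EZH2 and RBBP4 lost, and HIF subunits 0, with EPAS1 lost; KDM2A turned to 0.080, KDM4A to 0.084 and KDM5A to 0.0038. These members had not passed. Centring subtracts a median from each value. The median was -0.05 for all tested genes and -0.11 for those with a mean level of at least 1000. Classes of like level had other medians: with that centring EPAS1 moved from -0.54 to -0.38. The sign of every value rests on the reading of the table by heat shock genes, and the SE may rest on more libraries than the 4 described.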

Other observations

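Other enzymes that use 2-oxoglutarate and oxygen fell in part. Of 17 tested prolyl, lysyl and HIF hydroxylases 6 fell and 0 rose (35.3% called), with a median of -0.37. Of all tested genes 12.9% were called. EGLN3 and P4HA1 are also counted among the HIF target genes. The call of LEPRE1 (now P3H1, adjusted p = 0.0326) was lost at an adjusted p under 0.01. It was also lost after centring on the median of all tested genes (adjusted p = 0.0714) or of genes of like level (adjusted p = 0.134). EGLN3, a HIF prolyl hydroxylase that is itself a HIF target, was 5.38-fold lower with YZ129 (-2.43 ± 0.29, adjusted p = 2.1e-14) at a mean level of 95.3 in the authors' deposited table. PLOD2, a collagen lysyl hydroxylase, had -1.07 ± 0.19, and the collagen prolyl hydroxylases P4HA1 and P4HA2 had -0.88 ± 0.15 and -0.77 ± 0.15 in the authors' deposited table. Among 12 TET, ALKBH and FTO dioxygenases, which act on DNA and RNA, 1 fell (8.33% called). It was the RNA demethylase ALKBH5 (-0.51 ± 0.15, adjusted p = 0.00973), in the authors' deposited table. Centred on the median of genes of like level, ALKBH5 was no longer called (adjusted p = 0.120).

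Enzymes that supply or use 2-oxoglutarate, or remove succinate and fumarate, which inhibit these dioxygenases, gave 4 falls and 0 rises among 18. Their median was -0.19 and 22.2% were called, against 12.9% of all tested genes. The isocitrate dehydrogenases IDH2 (-0.89 ± 0.16) and IDH1 (-0.56 ± 0.14), the succinate dehydrogenase subunit SDHA (-0.58 ± 0.17) and the glutamate dehydrogenase GLUD1 (-0.39 ± 0.13) fell in the authors' deposited table. The call of GLUD1 (adjusted p = 0.0304) was lost at an adjusted p under 0.01 and after centring on the median of all tested genes (adjusted p = 0.0712) or of genes of like level (adjusted p = 0.289). Of the 10 tested partners of KDM2B in its Polycomb complex 0 passed in the authors' deposited table with DESeq2 columns, also 0 at an unadjusted p under 0.05, with values between -0.39 and 0.38.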
